A study of Mus musculus with 18 samples.

Results

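The cytosolic ribosomal protein genes are the genes whose products, together with ribosomal RNA, build the large and small subunits of the ribosome of the cytoplasm. Members were defined by symbol, as Rpl or Rps followed by a number and at most 1 of the endings a, l, x or y. The stalk proteins Rplp0, Rplp1 and Rplp2, the small subunit protein Rpsa and the variant genes Rpl10a, Rpl22l1, Rpl39l and Rpl3l were added. The set was chosen with earlier results of these data known, so the counts below are no independent test of it. S6 kinases and symbols ending in -ps were left out, and 1 member by symbol, Rpl32l, is annotated as a processed pseudogene. The rule found 82 of the 20979 genes with a symbol of their own, of which 51 belong to the large and 31 to the small subunit. A total of 80 members reached 1 RPKM (reads scaled to transcript length and to the size of the library) in at least 3 libraries and were tested, beside 13874 genes in all. The other two members, Rpl3l and Rpl32l, averaged 0.576 and 0.159 RPKM and were not tested.

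RNA sequencing had been done on whole testes of ICR mice, an outbred stock, aged 10 weeks, in 18 libraries that fell into 6 groups of 3. The group HFD_STZ_AOS_FMT had received a diet high in fat, STZ (streptozotocin, which kills the cells that make insulin) and a fecal microbiota transfer labelled with AOS at 10 mg/kg, and HFD_STZ_control_FMT the diet, STZ and a transfer labelled control. HFD_STZ_AOS had the diet, STZ and AOS at 10 mg/kg, and HFD_STZ the diet and STZ alone. The group AOS had AOS at 10 mg/kg without the diet, and the control group had none of these. AOS is an abbreviation that the labels do not spell out, and the labels state no treatment shared by all groups. The series was made to study how microbiota transfer acts on a testis damaged by the diet and STZ. The labels do not tie libraries to individual animals, so a p-value reflects only how far these samples spread, and that spread may be technical.

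The deposited values summed to between 588081 and 646822 RPKM per library, and the steps between low values gave relative depths of 0.981 to 1.014 of the median library. The genes used for these steps were those whose values in every library lay near whole multiples of 1 common step. That choice favours depths near the median, so a library of unlike depth could be missed. The germ cell markers summed to between 44700 and 60690 RPKM, the 10 Sertoli cell markers to between 368.9 and 501.7 RPKM and the 7 Leydig cell markers to between 2544 and 5195 RPKM. None of the markers of these lists was at 0 in every library. Epididymis markers reached 331.7 RPKM in the highest library against 3.65 RPKM in the lowest. HFD_STZ_AOS_FMT replicate 3, HFD_STZ_control_FMT replicate 2, HFD_STZ_AOS replicate 3 and control replicate 3 stood apart with more than 100 RPKM of Crisp1, a secreted protein of the epididymis, and results are also given without these 4 libraries. RNA was taken from whole testes, in which fewer cells of a type and less RNA per cell cannot be told apart.

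Ribosomal protein messages are among the most abundant in growing cells, and the proteins are made in matched amounts. Many of these genes share a promoter of one kind, in which transcription starts with a C inside a run of pyrimidines, and the resulting messages, called terminal oligopyrimidine (TOP) messages, are translated under the control of the mTOR pathway. In male germ cells the X chromosome is silenced during meiosis, and some X-linked ribosomal protein genes have autosomal copies that are active there. In mice, Rpl10l is needed for male meiosis and Rpl39l for the formation of normal sperm.

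Runs of pyrimidines at or near the annotated start could be seen in the promoters of several members whose values follow. RefSeq promoters of build GRCm38.p6 were matched to 62 of the 82 members by symbol. The 100 bases around the start of 5 of them are shown, each on the gene's own strand with the longest run of C and T near the start in capitals. The set was picked for its runs and holds 4 members that passed the test below and Rps27, the second member by level.
Rps18, chr17:33955616-33955715, minus strand: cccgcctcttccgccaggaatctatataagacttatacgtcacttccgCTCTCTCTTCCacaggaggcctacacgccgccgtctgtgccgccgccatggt
Rpl35a, chr16:33056432-33056531, plus strand: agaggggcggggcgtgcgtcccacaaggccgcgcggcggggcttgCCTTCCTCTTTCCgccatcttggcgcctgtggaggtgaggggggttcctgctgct
Rps9, chr7:3703991-3704090, plus strand: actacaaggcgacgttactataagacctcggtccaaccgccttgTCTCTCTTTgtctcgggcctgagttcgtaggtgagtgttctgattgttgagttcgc
Rpl13, chr8:123102300-123102399, plus strand: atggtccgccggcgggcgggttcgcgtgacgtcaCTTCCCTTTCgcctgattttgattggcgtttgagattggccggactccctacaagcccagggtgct
Rps27, chr3:90213599-90213698, minus strand: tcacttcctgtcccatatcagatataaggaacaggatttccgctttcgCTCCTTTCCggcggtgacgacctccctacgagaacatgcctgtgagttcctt
The runs were 11 bases long in Rps18, 13 in Rpl35a, 9 in Rps9, 10 in Rpl13 and 9 in Rps27. That of Rpl13 began at -16 relative to the annotated start and ended before it, while the other runs shown crossed the start. Rpl35a has 3 annotated starts in the table, and the longest runs at the other two were 4 and 5 bases. A gene was counted when a run of at least 8 of C or T reached within 20 bases of any of its annotated starts. The run did not have to contain the start. Such runs stood in 34 of the 62 matched members (54.8%), against 6399 of 27025 genes of the same table (23.7%). The letters CCGGAA, searched on both strands of the 300-base windows, stood in 33 of the 62 members (53.2%) and in 4503 of all genes (16.7%). The 2 searches can overlap where TTCC lies in a run, and a match is a description of letters, not of binding. Not every member holds such a run near the annotated start, since the longest were 3 bases in Rpl41, 5 in Rps28 and Rpl27 and 6 in Rpl37.

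Ribosomal protein messages were abundant in all 18 testis libraries. The median of the members' mean levels was 221.4 RPKM, against 8.539 RPKM over all genes tested, and 41 members stood among the 500 genes of highest mean. The medians of the large and the small subunit were close, at 219.3 and 223.5 RPKM. Rpl41, which encodes the shortest peptide of the ribosome, was the highest with 927 to 1418 RPKM, followed by Rps27 with a mean of 986.5 RPKM, Rpl26 with 884 RPKM, Rps26 with 751 RPKM and Rps24 with 672 RPKM. The ranges of these neighbours overlapped over the libraries. Of the stalk proteins that recruit translation factors, Rplp0 averaged 568 RPKM, Rplp1 269 RPKM and Rplp2 212 RPKM, and Rpsa, a small subunit protein also known as the laminin receptor, averaged 142 RPKM. In all, 63 members lay above 100 RPKM.

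The lowest members were Rps6 at 1.56 to 4.6 RPKM, Rpl34 at 3.67 to 6.86 RPKM and Rpl29 at 6.50 to 11.9 RPKM, besides the untested pair. Rps6 is the substrate of the S6 kinases, and all 3 encode core proteins of the ribosome with processed copies in the genome. The processed pseudogene Rpl34-ps1, which shares 171 windows of 50 bases with the transcripts of Rpl34, stood at 424 RPKM, and the processed pseudogene Gm8210, which shares 284 with Rpl29, at 528 RPKM. Only 15.4% of the 50-base windows of Rps6 were found in no other annotated transcript, against 74.2% for Rpl34 and 33.2% for Rpl29. Over all members, 11 had under 20% of their windows to themselves and 29 under 50%. The split of reads between a member and its copies is therefore uncertain, and across the members Spearman's rho of the mean level was -0.15 with the share of unique windows and -0.26 with transcript length, as a description of 82 genes that share the same libraries.

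The 4 X-linked members were low among their kind. Rpl10, which completes the large subunit before it joins the small one, averaged 91.0 RPKM, Rpl36a 37.5 RPKM, the small subunit protein Rps4x 35.4 RPKM and Rpl39, which lines the exit tunnel of the new peptide, 28.4 RPKM. Their median was 36.5 RPKM, against 226.9 RPKM for the 78 autosomal members. Of their 50-base windows, 14.6% were unique in Rpl10, 14.5% in Rpl36a, 27.8% in Rps4x and 83.5% in Rpl39. Their reads may therefore be split with copies too. The autosomal copies of Rpl10 and Rpl39 were higher. Rpl10l on chromosome 12 averaged 168 RPKM, and Rpl39l on chromosome 16 averaged 179 RPKM. The coding sequences of Rpl39l and Rpl39 show how far these copies can be told apart, with the bases that differ in capitals.
Rpl39l, chr16, plus strand: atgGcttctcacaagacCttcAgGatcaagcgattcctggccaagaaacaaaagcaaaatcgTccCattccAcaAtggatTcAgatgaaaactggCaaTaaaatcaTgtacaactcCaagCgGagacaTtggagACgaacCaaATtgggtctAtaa
Rpl39, chrX, minus strand: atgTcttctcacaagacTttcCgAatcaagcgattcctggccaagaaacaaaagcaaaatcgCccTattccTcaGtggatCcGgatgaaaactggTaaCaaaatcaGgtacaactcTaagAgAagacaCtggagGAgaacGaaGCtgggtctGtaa
They differed at 23 of 156 bases and shared none of 107 windows of 50 bases. Rpl10l and Rpl10 differed at 98 of 645 bases and shared 0 of 596 windows. The pairs were thus distinct at that length. Rpl39l had all of its windows to itself and Rpl10l 92.4% of them, while Rpl10 had 14.6% because of other copies.

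Rpl39l exceeded Rpl39 in every library. The ratio of their RPKM was 6.20, 4.88 and 6.28 in HFD_STZ_AOS_FMT, 6.0, 6.43 and 6.24 in HFD_STZ_control_FMT, 5.64, 8.36 and 4.53 in HFD_STZ_AOS and 5.38, 6.37 and 6.04 in HFD_STZ. It was 8.69, 7.84 and 10.5 in AOS, against 5.98, 6.71 and 5.23 in control, so that the AOS libraries lay above all control libraries. The ratio of Rpl10l to Rpl10 was likewise highest in AOS, at 2.45, 2.32 and 2.30, against 1.79, 2.07 and 1.78 in control, and it ranged from 1.19 in HFD_STZ_AOS replicate 3 upwards over all libraries. The differences between ratios were not tested. Other pairs had no common direction: Rpl22l1, a variant of Rpl22, stood at 0.677 to 1.17 times its partner, Rps27l, a p53-induced variant, at 0.0636 to 0.1 times Rps27, and Rpl3l, known from muscle, at 0.003 to 0.0113 times Rpl3.

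**Figure D1:**
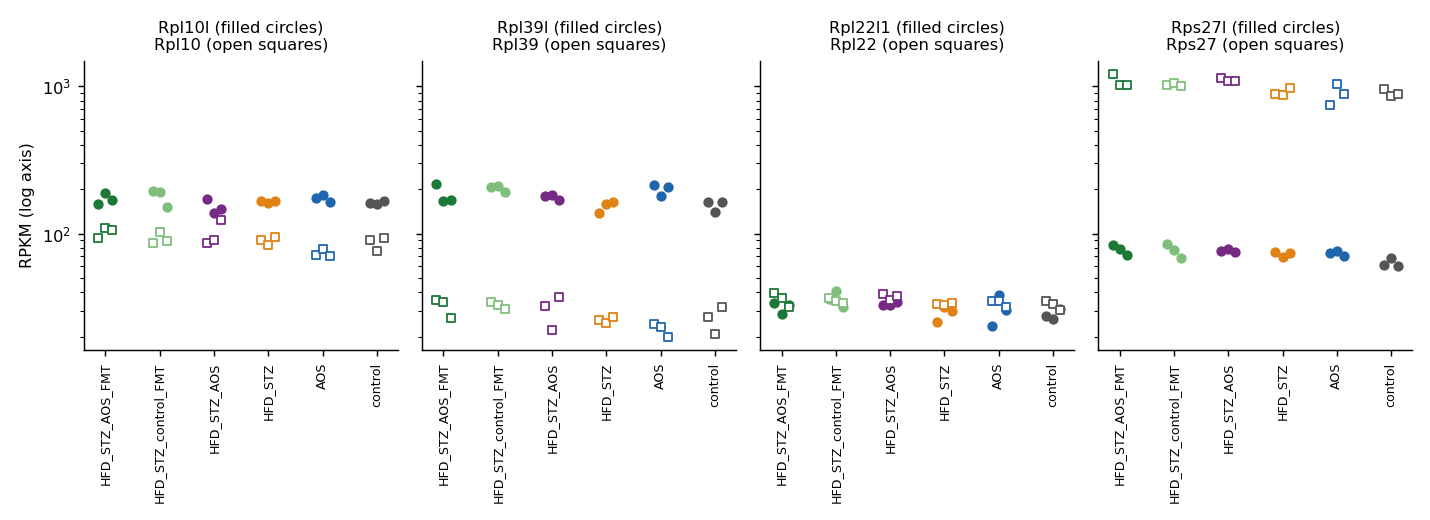
RPKM (log axis) of 4 pairs of a variant gene (filled circles) and its partner (open squares) in the 18 libraries of 6 groups, 1 point per library. Rpl10l and Rpl39l lie above their X-linked partners, Rpl22l1 and Rpl22 overlap, and Rps27l lies below Rps27 in every library.

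The summed level of the 82 members was lowest in the groups that had neither AOS nor a transfer. It was 26025, 22808 and 21938 RPKM in HFD_STZ_AOS_FMT and 24345, 24102 and 22147 RPKM in HFD_STZ_control_FMT. HFD_STZ_AOS had 24502, 23601 and 24127 RPKM, against 20575, 20471 and 21790 RPKM in HFD_STZ. The group AOS had 21817, 22188 and 21967 RPKM, against 20873, 19871 and 20419 RPKM in control. All 12 libraries with AOS or a transfer thus lay at or above 21817 RPKM and the 6 others at or below 21790 RPKM, a gap much smaller than the spread within groups. As a share of all RPKM of a library the members made up 4.02%, 3.71% and 3.61% in HFD_STZ_AOS_FMT, 3.88%, 3.91% and 3.66% in HFD_STZ_control_FMT, 3.87%, 3.82% and 3.95% in HFD_STZ_AOS and 3.48%, 3.47% and 3.60% in HFD_STZ. The share was 3.58%, 3.57% and 3.63% in AOS and 3.46%, 3.37% and 3.47% in control, and on this scale 2 AOS libraries lay below the highest HFD_STZ library.

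**Figure D2:**
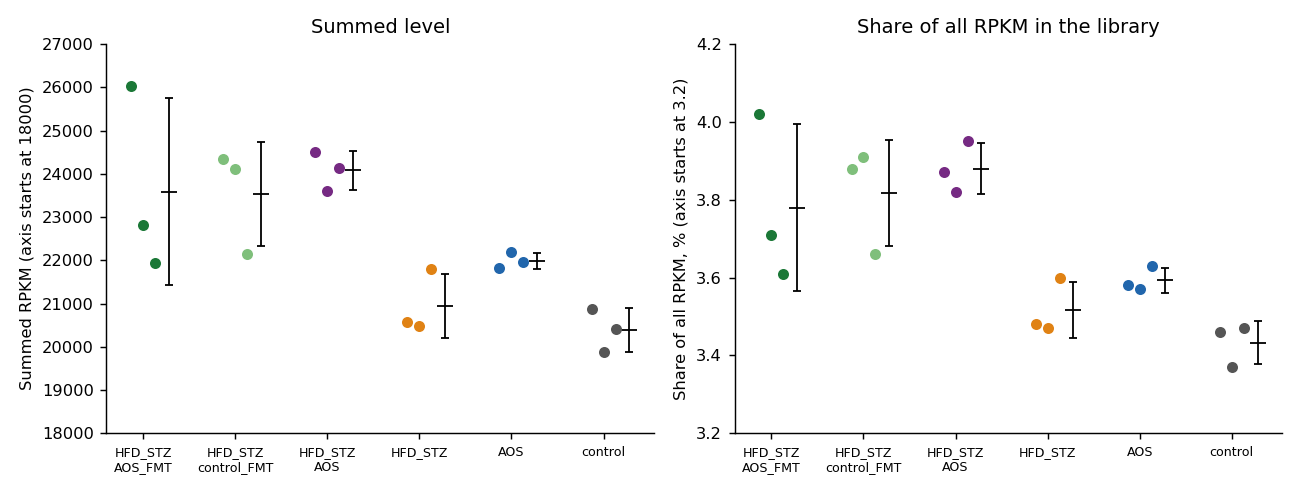
Summed RPKM of the 82 ribosomal protein genes (left) and their share of all RPKM in percent (right) in each library, with the mean and SD of 3 libraries per group as a bar at the side. Both axes are cut above 0. HFD_STZ_AOS averages 24077 RPKM against 20945 RPKM in HFD_STZ, and AOS 21991 RPKM against 20388 RPKM in control.

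The effect of AOS across both backgrounds was the only one in which a group of members passed the test. This main effect set the mean of AOS and HFD_STZ_AOS against that of control and HFD_STZ, 6 libraries against 6. In limma over all genes, with Benjamini-Hochberg adjustment and a threshold of 0.05, 15 of the 80 tested members rose (18.8%) and 0 fell, against 2.34% of all tested genes called and 1.3% called higher. Of the 15, 10 belong to the large and 5 to the small subunit. The median log2 difference of the members was 0.13, a factor of 1.09 in RPKM + 1, against -0.02 for all tested genes. A total of 73 members were higher, against 43.0% of all genes. At an unadjusted p under 0.05, 49 members were higher and 0 lower, against 8.59% and 12.1% of all genes. In 11 members every library with AOS lay above every library without it, against 1.16% of all genes.

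Rpl13 (chr8:123102350-123105244 of GRCm38, plus strand), a large subunit protein, had 488, 483 and 535 RPKM in HFD_STZ_AOS, against 413, 412 and 447 RPKM in HFD_STZ. It had 454, 444 and 445 RPKM in AOS, against 398, 386 and 394 RPKM in control. The groups of each pair did not overlap, but the highest HFD_STZ library lay above 2 of the AOS libraries. Its log2 difference was 0.22 ± 0.04 (SE, adjusted p = 0.0235 in limma).

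Rps21 (chr2:180257377-180258445, plus strand), a small subunit protein, had 218, 223 and 232 RPKM in HFD_STZ_AOS, against 165, 154 and 181 RPKM in HFD_STZ. It had 204, 182 and 200.3 RPKM in AOS, against 168, 139.7 and 159 RPKM in control. Every library with AOS lay above every library without it, and the log2 difference was 0.38 ± 0.07 (adjusted p = 0.0235 in limma).

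Rps29 (chr12:69157722-69159186, minus strand), a small zinc-binding protein of the small subunit, showed the largest difference among the members. It had 230.2, 252 and 247 RPKM in HFD_STZ_AOS, against 142, 170.3 and 187 RPKM in HFD_STZ. It had 353, 183 and 319.7 RPKM in AOS, against 178, 141 and 159.9 RPKM in control. AOS replicate 2 lay far below its group and under the highest HFD_STZ library. The log2 difference was 0.67 ± 0.14 (adjusted p = 0.0277 in limma).

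Rps28 (chr17:33819027-33824562, minus strand) is another short protein of the small subunit. It had 455, 452 and 479.7 RPKM in HFD_STZ_AOS, against 249, 303 and 272 RPKM in HFD_STZ. It had 361, 214 and 395 RPKM in AOS, against 283, 248 and 273 RPKM in control. AOS replicate 2 was again the low one, below all control libraries. The log2 difference was 0.49 ± 0.12 (adjusted p = 0.0456 in limma).

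**Figure D3:**
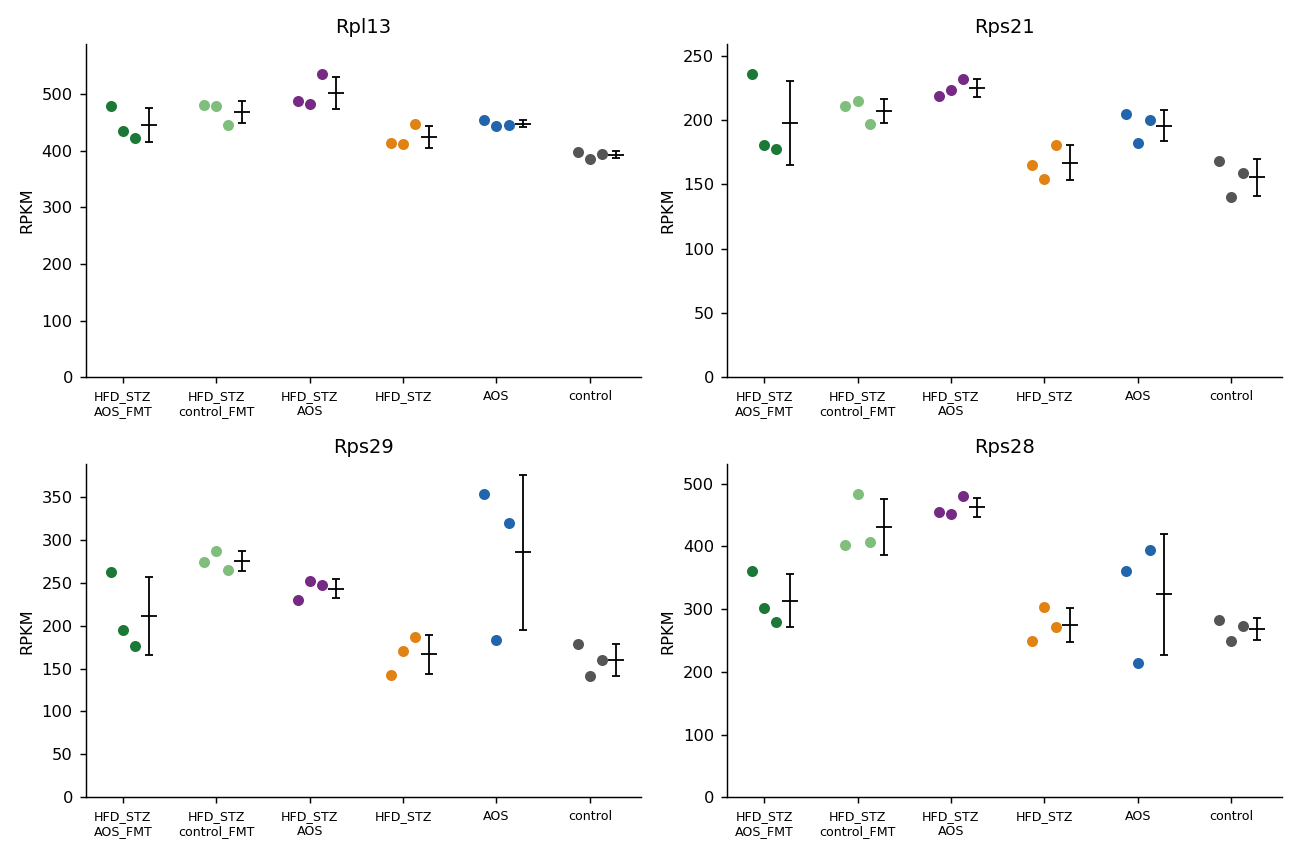
RPKM of Rpl13, Rps21, Rps29 and Rps28 in the 18 libraries of 6 groups, with the mean and SD of 3 libraries as a bar at the side and axes that start at 0. All HFD_STZ_AOS libraries lie above all HFD_STZ libraries in the 4 genes, and AOS replicate 2 is low in Rps29 and Rps28.

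The other members called in this effect rose by 0.15 to 0.40 on the log2 scale. Rpl41 had a lowest, median and highest value of 1112, 1272 and 1299 RPKM in the 6 libraries with AOS, against 927, 1004 and 1098 RPKM in the 6 without, a log2 difference of 0.31 ± 0.06. Rpl37 had 107, 133 and 146 RPKM with AOS, against 83.7, 105 and 109.7 RPKM without, a log2 difference of 0.40 ± 0.10. These groups did not overlap for Rpl41, while for Rpl37 5 of 6 libraries with AOS lay above all others. Rpl39l, the autosomal copy expressed in the testis, had 169, 183 and 213 RPKM with AOS, against 139.0, 161 and 165 RPKM without, with no overlap and a log2 difference of 0.29 ± 0.07. Its X-linked partner Rpl39 had 19.9, 23.8 and 37.4 RPKM with AOS, against 21.0, 26.5 and 31.5 RPKM without, a log2 difference of -0.01 ± 0.12 that did not pass (adjusted p = 0.965 in limma). The other 8 called members were the stalk protein Rplp1, Rpl23a at the end of the exit tunnel, Rpl35a, Rpl27, Rpl30 and Rpl13a of the large subunit, and Rps18 and Rps9 of the small one. Their log2 differences ran from 0.15 for Rpl23a to 0.26 for Rplp1. Rpl13a, Rps18, Rpl35a, Rpl27 and Rps9 had every library with AOS above every library without it. Among the 7 members that were lower, the smallest p belonged to Rps6 (-0.19 ± 0.16), Rpl7a (-0.04 ± 0.04) and Rpl4 (-0.03 ± 0.03), and none passed (adjusted p = 0.534 or more in limma).

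**Figure D4:**
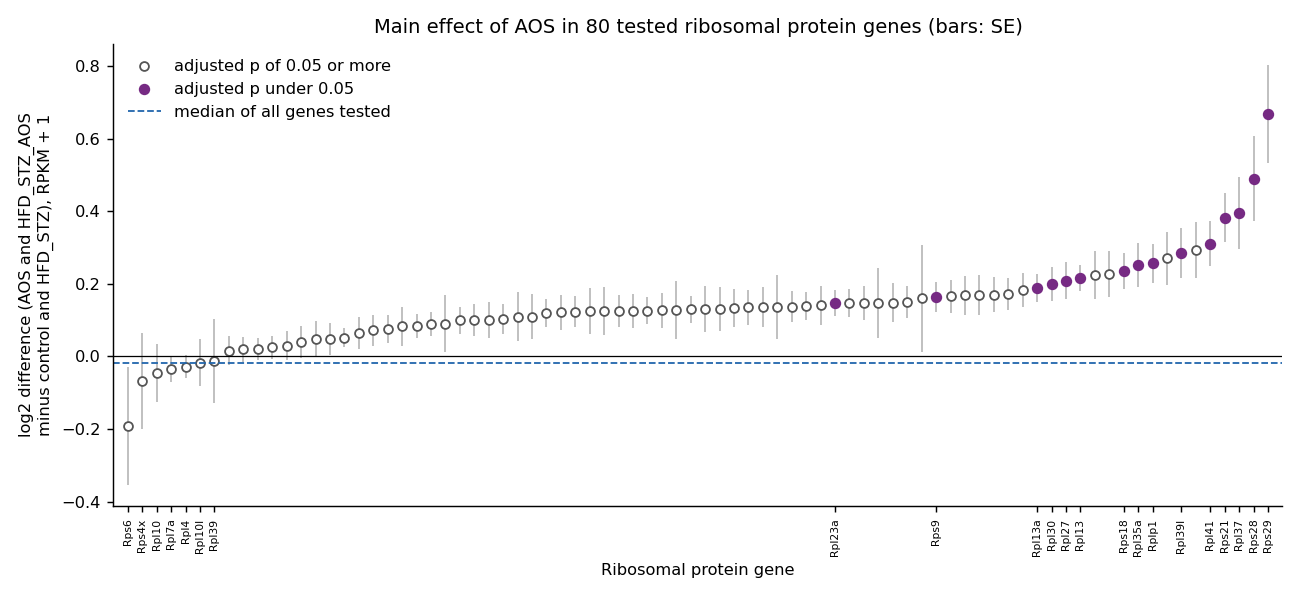
Log2 difference of the main effect of AOS (AOS and HFD_STZ_AOS minus control and HFD_STZ, on RPKM + 1) with its SE for each of the 80 tested members, in order of size. Filled points are the 15 with an adjusted p under 0.05, all above 0, which are named on the axis together with the 7 members below 0, and the dashed line at -0.02 is the median of all genes tested.

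These 15 calls did not survive several changes of the fit. None remained without HFD_STZ_AOS replicate 1, HFD_STZ replicate 1, HFD_STZ replicate 2, AOS replicate 1, AOS replicate 3 or control replicate 2. In these fits 0, 3, 0, 0, 1 and 0 of all genes were called, in the same order, against 325 with all libraries. The members called numbered 3 without control replicate 1 (57 of all genes), 6 without control replicate 3 (176) and 9 without HFD_STZ_AOS replicate 2 (246). Without the 4 libraries high in Crisp1 the count was 2, Rpl13 and Rpl13a, beside 76 of all genes, while the median of the members stayed at 0.12. Over the omissions of single libraries that median ranged from 0.12 to 0.15.

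The difference also moved with transcript length. The median member was 757.5 bases long, against 2486 bases for the tested genes, and the 4 members shown by library measured 780 bases (Rpl13), 394 (Rps21), 390.0 (Rps29) and 387 (Rps28). Over the 13516 other genes with a length, Spearman's rho between length and the main effect of AOS was -0.41, and over the 80 members it was -0.45, as a description across genes of the same libraries. The 1504 other genes of at most 1000 bases had a median of 0.08, and 88 of them were called. With each library's trend on length removed, 0 members and 0 of all genes were called. In that fit 51 of 80 members were higher, with a median of 0.04, against -0.004 for all genes. At an unadjusted p under 0.05, 24 members were higher and 2 lower. For fits with that trend removed or with libraries left out, here and below, shares of all genes that were higher or at an unadjusted p are not given. The counts of members that were higher or at that p in those fits therefore have no background beside them. Rps29 then differed by 0.50 (adjusted p = 0.0948 in limma) and Rps21 by 0.22 (adjusted p = 0.0747 in limma). What made short transcripts higher was not tested.

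**Figure D5:**
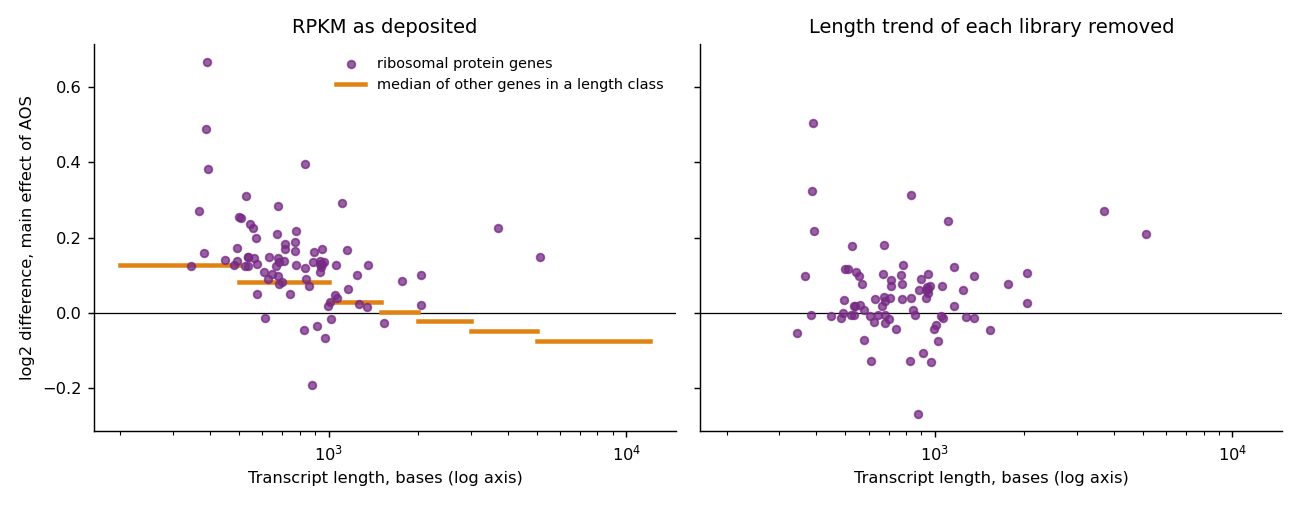
Log2 difference of the main effect of AOS against transcript length in bases (log axis) for the 80 tested ribosomal protein genes, with RPKM as deposited (left, orange steps are medians of all other genes in a length class) and after each library's trend on length was removed (right). The medians of other genes fall from 0.13 in the shortest class to -0.08 in the longest, and the members' median is 0.13 on the left and 0.04 on the right.

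Markers of other cells moved in the same comparison. All 7 Leydig cell markers were lower with AOS, with a median log2 difference of -0.25 and 0 called, and they summed to 3491 to 4125 RPKM in HFD_STZ_AOS against 3545 to 4461 RPKM in HFD_STZ and to 2544 to 3447 RPKM in AOS against 3478 to 3975 RPKM in control. The 4 tested blood markers were lower with a median of -0.56 and 0 called, at 107.7 to 174.9 RPKM in HFD_STZ_AOS against 152.1 to 211.1 RPKM in HFD_STZ and at 66.5 to 98.8 RPKM in AOS against 99.8 to 140.7 RPKM in control. Of 17 tested germ cell markers 3 rose and 1 fell, while 9 were higher and 8 lower without regard to the test, with a median of 0.00. Their sum gives the most weight to the most abundant markers. All 18 summed to 52140 to 59790 RPKM in HFD_STZ_AOS against 46340 to 52170 RPKM in HFD_STZ and to 55660 to 57400 RPKM in AOS against 44700 to 50740 RPKM in control, so that the sums were higher with AOS, without overlap in the second pair. Of the other lists, 0 of 9 Sertoli, 5 leukocyte, 6 epididymis, 6 adipocyte and 1 skeletal muscle markers passed, with medians of 0.07, -0.08, 0.02, 0.14 and -0.05. Adipocyte markers summed to 19.1 to 122.8 RPKM in HFD_STZ_AOS against 14.9 to 27.1 RPKM in HFD_STZ and to 17.1 to 37.4 RPKM in AOS against 16.1 to 32.0 RPKM in control. Their part in the result was not tested.

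On the diet with STZ, the members were higher with AOS almost without exception, but none passed the test alone. In HFD_STZ_AOS against HFD_STZ, 77 of 80 members were higher, against 47.7% of all genes, with a median log2 difference of 0.18, a factor of 1.13, against -0.01 for all genes. In limma 0 members were called, as were 0.0% of all genes. At an unadjusted p under 0.05, 54 members were higher and 0 lower, against 6.23% and 6.26% of all genes. In 59 members every HFD_STZ_AOS library lay above every HFD_STZ library, against 7.37% of all genes. The smallest p belonged to Rpl30 with 512, 478 and 493 RPKM in HFD_STZ_AOS, against 399, 371 and 411 RPKM in HFD_STZ. These did not overlap, and the log2 difference was 0.33 ± 0.07 (adjusted p = 0.170 in limma). Rpl10a followed with 0.27 ± 0.05 and Rpl23a with 0.24 ± 0.05, at the same adjusted p. The lower members were Rpl10l (-0.12 ± 0.09), Rps6 (-0.29 ± 0.23) and Rpl4, which had 258 ± 3.15 RPKM in HFD_STZ_AOS and 258 ± 7.54 RPKM in HFD_STZ (SD, n = 3 each). With the length trend removed, the median was 0.08, against 0.0 for all genes, and 24 members were higher and 1 lower with an unadjusted p under 0.05.

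Without the diet, the same agent went with a smaller shift. In AOS against control the median was 0.09, against -0.03 for all genes, and 60 members were higher, against 40.2% of all genes. In limma 0 members and 0.0% of all genes were called. At an unadjusted p under 0.05, 18 members were higher and 1 was lower, against 5.46% and 8.4% of all genes. In 29 members the AOS libraries lay above all control libraries, against 7.76% of all genes. Rps29 had the smallest p, with a log2 difference of 0.79 ± 0.19 (adjusted p = 0.161 in limma), and without AOS replicate 2 it differed by 1.07 and passed (adjusted p = 0.0249 in limma). Rpl13 (0.19 ± 0.05) and Rpl41 (0.32 ± 0.09) followed at an adjusted p of 0.181 in limma. Rpl7a had 258 ± 4.68 RPKM in AOS and 281 ± 14.9 RPKM in control (SD, n = 3 each), without overlap, and Rpl10a and Rpl10 were the next lowest by p, at -0.11 ± 0.05 and -0.23 ± 0.11. The count of 18 became 8 without control replicate 2, and the median became 0.06 without AOS replicate 2. With the length trend removed, 8 members were higher and 7 lower at that p, and the median was 0.015. HFD_STZ_AOS was set against HFD_STZ and AOS against control, so these comparisons share no library.

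Whether the AOS difference itself differed with the diet and STZ was asked by their interaction. In limma 0 members and 0.0% of all genes were called. At an unadjusted p under 0.05, 15 members had a positive and 0 a negative interaction, against 2.88% and 1.74% of all genes, and 9 a positive one without the 4 libraries high in Crisp1. The median interaction was 0.09, against 0.02 for all genes, and 67 members were above 0, against 56.4% of all genes. Rpl10a had the smallest p. It had 104, 97.8 and 99.6 RPKM in HFD_STZ_AOS, against 81.8, 87.6 and 80.9 RPKM in HFD_STZ, and 85.2, 80.2 and 77.6 RPKM in AOS, against 81.9, 93.0 and 88.3 RPKM in control. The diet groups did not overlap and the others did, and the interaction was 0.38 ± 0.08 (adjusted p = 0.495 in limma). Rpl36a (0.66 ± 0.16) and Rpl5 (0.21 ± 0.06), which binds the 5S ribosomal RNA, came next. On the negative side stood Rpl10l (-0.22 ± 0.13), Rps27l and Rpl39l (adjusted p = 0.999 in limma for each).

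Both transfers went with higher members than the diet with STZ alone. HFD_STZ is the comparison group for both and for HFD_STZ_AOS, so its 3 libraries enter all of these differences, and their likeness is not independent. In HFD_STZ_AOS_FMT against HFD_STZ, 80 of 80 members were higher, against 43.7% of all genes, with a median of 0.15 and log2 differences of 0.02 to 0.41. In limma 0 members were called, against 0.0144% of all genes. With an unadjusted p under 0.05 there were 40 higher and 0 lower members, against 6.31% and 8.14% of all genes. In 31 members every HFD_STZ_AOS_FMT library lay above every HFD_STZ library, against 7.82% of all genes. The smallest p belonged to Rpl23a with 529, 492 and 458 RPKM in HFD_STZ_AOS_FMT, against 428, 429 and 406 RPKM in HFD_STZ. Those did not overlap, and the log2 difference was 0.22 ± 0.05 (adjusted p = 0.189 in limma). Rpl38, whose loss in mice alters the skeleton, had 879.9, 648 and 649.7 RPKM, against 493, 543 and 588 RPKM in HFD_STZ, and Rpl28 differed by 0.23 ± 0.06. HFD_STZ_AOS_FMT replicate 1 had the highest summed level of all libraries. Without it, 11 members had an unadjusted p under 0.05 and were higher and the median was 0.09, while without HFD_STZ replicate 1 and replicate 2 the counts were 23 and 25.

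In HFD_STZ_control_FMT against HFD_STZ, 77 of 80 members were higher, against 41.1% of all genes, with a median of 0.16. In limma 0 members were called, against 0.00721% of all genes. With an unadjusted p under 0.05 there were 46 higher and 0 lower members, against 6.06% and 10.1% of all genes. In 38 members the libraries with transfer lay above all HFD_STZ libraries, against 8.0% of all genes. Rps18 had 315.7, 322 and 283 RPKM in HFD_STZ_control_FMT, against 245, 238 and 267 RPKM in HFD_STZ, without overlap (log2 difference 0.29 ± 0.07, adjusted p = 0.125 in limma). Rplp1 (0.32 ± 0.08) and Rpl39l (0.40 ± 0.10) were next, and Rpl39l had 207, 211 and 191 RPKM in HFD_STZ_control_FMT, against 139.0, 159 and 164 RPKM in HFD_STZ. The 3 lower members, Rpl4, Rps26 and Rps6, lay between -0.04 and -0.01. The count of 46 became 29 without HFD_STZ_control_FMT replicate 1, without its replicate 2 or without HFD_STZ replicate 1, and without HFD_STZ_control_FMT replicate 3 Rplp1 passed with a log2 difference of 0.42 (adjusted p = 0.0460 in limma).

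Transcript length and other cells moved with both transfers. The rank correlation of length with the difference over the 13516 other genes was -0.41 for HFD_STZ_AOS_FMT and -0.37 for HFD_STZ_control_FMT, each against HFD_STZ. With the length trend removed, the members' medians were 0.06 and 0.07, and 9 and 22 members were higher with an unadjusted p under 0.05. Adipocyte markers summed to 53.8 to 150.2 RPKM in HFD_STZ_AOS_FMT and to 44.1 to 154.7 RPKM in HFD_STZ_control_FMT, against 14.9 to 27.1 RPKM in HFD_STZ, with 6 of 6 tested markers higher and 0 called. Epididymis markers summed to 27.6 to 331.7 RPKM and to 8.86 to 210.9 RPKM in these groups, against 5.21 to 6.67 RPKM in HFD_STZ, again with 6 of 6 tested markers higher and 0 called. Blood markers summed to 81.6 to 110.4 RPKM and to 129.9 to 144.3 RPKM in the same groups, against 152.1 to 211.1 RPKM in HFD_STZ. Leydig cell markers summed to 3562 to 5195 RPKM in HFD_STZ_AOS_FMT and to 2662 to 3947 RPKM in HFD_STZ_control_FMT, against 3545 to 4461 RPKM in HFD_STZ. Of the 7, 6 were lower in HFD_STZ_control_FMT with a median of -0.28 and 1 was called lower, and 3 were lower in HFD_STZ_AOS_FMT with 0 called. Germ cell markers summed to 50790 to 60690 RPKM and 50950 to 56670 RPKM after the 2 transfers in the same order, against 46340 to 52170 RPKM in HFD_STZ. Their part in the results was not tested.

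Between the 2 transfers no member passed. In HFD_STZ_AOS_FMT against HFD_STZ_control_FMT 36 members were higher, against 53.9% of all genes, with a median of -0.02, and in limma 0 members were called, against 0.0216% of all genes. A total of 4 members were higher and 2 lower with an unadjusted p under 0.05, against 2.92% and 1.66% of all genes, and in 4 the groups did not overlap with HFD_STZ_AOS_FMT higher, against 5.15% of all genes. Rps28 had 361, 301 and 279 RPKM in HFD_STZ_AOS_FMT, against 403, 483 and 407 RPKM in HFD_STZ_control_FMT, without overlap (log2 difference -0.46 ± 0.16, adjusted p = 0.999 in limma). Rps29 (-0.40 ± 0.19) and Rplp1 (-0.17 ± 0.08) were also lower, and Rpl4 (0.12 ± 0.04), Rps26 (0.20 ± 0.08) and Rpl21 (0.14 ± 0.06) higher, at the same adjusted p. The comparison turned on single libraries. Without HFD_STZ_AOS_FMT replicate 1 the median was -0.07 and 1 member was higher and 17 lower with an unadjusted p under 0.05. Without HFD_STZ_control_FMT replicate 3 the counts were 1 and 6 with a median of -0.05, and without its replicate 2 they were 1 and 0. Without HFD_STZ_AOS_FMT replicate 3 they were 5 and 0 with a median of 0.03, and without the libraries high in Crisp1 the median was 0.05.

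The diet with STZ alone moved the members little. In HFD_STZ against control the median was 0.04, against 0.02 for all genes, and 61 members were higher, against 59.5% of all genes, but the median was 0.01 when libraries were scaled by median ratios, 0.006 without HFD_STZ replicate 3 and 0.01 without control replicate 2. In limma 0 members and 0.0% of all genes were called, and 2 members were higher and 2 lower with an unadjusted p under 0.05, against 6.16% and 2.13% of all genes. In 8 members the groups did not overlap with HFD_STZ higher (10.0%, against 11.7% of all genes). Rps27l had 72.9 ± 2.91 RPKM in HFD_STZ and 63.2 ± 4.86 RPKM in control (SD, n = 3 each), and Rps10 277 ± 16.8 RPKM and 249 ± 9.52 RPKM in the same groups. Rpl34 had 5.20, 3.67 and 4.69 RPKM in HFD_STZ, against 6.39, 6.08 and 5.65 RPKM in control, a log2 difference of -0.36 ± 0.11 (adjusted p = 0.357 in limma). Rpl29 and Rpl5 followed among the lower members, at -0.34 ± 0.12 and -0.07 ± 0.04, and the reads of Rpl34 and Rpl29 may be split with the copies named above.

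Across both backgrounds the diet with STZ had 1 member past the threshold in limma. This main effect set HFD_STZ and HFD_STZ_AOS against control and AOS, and 2.85% of all genes were called and 2.4% called higher. The count was 0 without HFD_STZ_AOS replicate 1 or 3, HFD_STZ replicate 1 or 3, AOS replicate 1 or 3, or control replicate 1 or 2. In those fits 110 to 319 of all genes were called, against 396 with all libraries. The count was 4 without HFD_STZ_AOS replicate 2, beside 695 of all genes, and 3 without AOS replicate 2, beside 264. Without the libraries high in Crisp1 it was 0, beside 36 of all genes. The call also changed gene and direction. Without HFD_STZ replicate 2 the 1 member called was Rpl29, which was lower (log2 difference -0.32, adjusted p = 0.0321 in limma), and in a fit of the 4 groups alone it was Rps15 (adjusted p = 0.0468 in limma). Blood markers were higher with the diet in 4 of 4 tested, with a median of 0.87 and 1 called. Sertoli cell markers were higher in 8 of 9 with 1 called, and germ cell markers were lower in 11 of 17 with 1 called lower. Their part in the result was not tested. The median of the members was 0.08, against 0.03 for all genes, and 71 members were higher, against 64.7% of all genes. At an unadjusted p under 0.05, 32 members were higher and 1 lower, against 14.3% and 4.42% of all genes, and in 0 members every library with the diet lay above every other, against 1.61% of all genes. Rps15 and Rpl36a came closest to the threshold among those that missed it, at 0.16 ± 0.04 and 0.30 ± 0.08 (adjusted p = 0.0559 and 0.0568 in limma). Rpl29 (-0.23 ± 0.09), Rpl39l and Rpl10l had the smallest p among the lower members, and none of these passed with all libraries (adjusted p = 0.167, 0.501 and 0.517 in limma).

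Over the 6 groups together, the F test of limma called 0 members and 0.0432% of all genes, while 62 of the 80 members had an unadjusted p under 0.05, against 21.1% of all genes. Without HFD_STZ_AOS_FMT replicate 1 it called 12 members, without HFD_STZ_AOS replicate 2 it called 5 and without AOS replicate 2 it called 3. Calls over all genes rose as well, from 6 with all libraries to 117, 157 and 36 in the same order. The spread within groups, as a coefficient of variation, was 6.4% for the median member and ran from 2.7% to 29.4%, the last in the low member Rps6.

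Other genes of the translation machinery were taken from fixed lists, and none of these lists was tested against the members. In the main effect of AOS, Fau, which encodes a ubiquitin-like protein fused to a small subunit protein, rose to 435 ± 17.2 RPKM with AOS, against 384 ± 19.5 RPKM without (SD, n = 6 each, adjusted p = 0.0333 in limma). Of the 6 tested ribosomal protein genes outside the rule 2 rose in all, against 1.3% of all genes. From this list, Rps3a1, Rpl36al, Rpl7l1 and Rack1 did not pass and averaged 171.5, 168.7, 12.4 and 70.1 RPKM over all libraries. Of 6 elongation factors, 32 initiation factors, 45 ribosome biogenesis factors and 10 other TOP messages, 0 passed in either direction, with medians of 0.02, -0.02, -0.02 and 0.01. The smallest p among them belonged to Polr1d, a subunit of RNA polymerases that make ribosomal RNA, at 163 ± 4.85 RPKM with AOS and 149.9 ± 5.16 RPKM without (log2 difference 0.12 ± 0.03, adjusted p = 0.0520 in limma). Eif3a, the scaffold of initiation factor eIF3, was at 42.6 ± 1.99 RPKM with AOS and 47.0 ± 1.62 RPKM without (log2 difference -0.14 ± 0.04, adjusted p = 0.0656 in limma), and Eef1b2, an exchange factor of elongation, differed by 0.12 ± 0.04. Pabpc1, the poly(A)-binding protein and a TOP message, differed by -0.09 ± 0.03 (adjusted p = 0.0740 in limma).

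Mitochondrial ribosomal protein genes, whose products build the ribosome of that organelle, had a median of 0.07 in the main effect of AOS, with 2 of 78 risen and 1 fallen, near the 2.34% of all genes called. Mrps12 rose by 0.28 ± 0.05 and Mrpl18 fell by 0.19 on the log2 scale (adjusted p = 0.0235 and 0.0409 in limma). Nuclear genes for the subunits of oxidative phosphorylation had a median of 0.12, close to that of the cytosolic ribosomal protein genes. Of the 77 tested, 7 rose and 0 fell, against 1.3% of all genes called higher and 1.05% called lower. The 1504 genes of at most 1000 bases outside the members had a median of 0.08 in this effect. Values with the length trend removed are not given for either list. Ndufv3, of complex I, rose by 0.36 ± 0.06, and Cox4i1, of complex IV, had 289 ± 13.6 RPKM with AOS and 251 ± 7.83 RPKM without (adjusted p = 0.0235 and 0.0267 in limma). No test of a difference between these lists and the members was run.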

How the data were processed

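The table holds RPKM values per gene symbol that the authors deposited for 18 testis libraries. The aligner Bowtie 0.12.2 and build mm10 are named, per the submitters' processing notes. The counting tool, its annotation, its use of strand and the read length are not given in the sources used here. RPKM keeps no counts, so no count test was run and no counting interval is given. Steps between low values gave relative depths of 0.981 to 1.014, from genes chosen in a way that favours values near 1. With an absolute depth unknown, the precision rests on the 3 libraries per group.

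Of 20985 rows, 6 rows that shared 3 symbols were left out. The 13874 genes that reached 1 RPKM in 3 libraries or more were fitted as log2(RPKM + 1), which understates changes of low genes, with limma 3.58.1 in R 4.3.3: 1 coefficient per group, mean-variance trend, two-sided moderated tests, Benjamini-Hochberg adjustment over all tested genes, threshold 0.05. A count model had been planned should the table hold counts. Named genes were all called members, the 3 of smallest p in each direction of a comparison, the 5 highest and 5 lowest by mean, a fixed panel with the paralog pairs, and up to 2 genes of smallest p per list. The members and lists were chosen with earlier results of these data known. Lengths, strands and shared 50-base windows came from GENCODE vM21 (GRCm38), promoters from RefSeq. Alternatives were another scaling, pseudocount and filter, fewer groups, robust variance, a replicate block, removal of each library's trend on length (lowess, span 0.3), omission of libraries and, chosen after seeing the data, omission of the 4 libraries above 100 RPKM of Crisp1. The fit was tested on simulated data. Values of 2 genes are not reported here.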

Additional observations from a re-analysis of the deposited data

How the results depend on the processing

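The count of 15 members called in the main effect of AOS was 5 with no filter on low values, beside 142 of all genes. It was 25 in a fit of the 4 groups alone (565 of all genes) and 0 with the length trend removed (0 of all genes). With the replicate block and the length trend removed together it was 0 (3 of all genes). It was 2 without the libraries above 100 RPKM of Crisp1 (76 of all genes), and 0 to 15 when 1 library was left out. The count of 1 in the main effect of HFD_STZ was 0 under median-ratio scaling (268 of all genes) and with no filter (205). It was also 0 with the length trend removed (320, or 364 with the block as well) and without the libraries high in Crisp1 (36). When 1 library was left out it was 0 to 4, and it was not the same gene in every setting with 1 call. Single omissions gave 0 to 1 calls in AOS against control and 0 to 1 in HFD_STZ_control_FMT against HFD_STZ, beside at most 3 and 14 of all genes. In the F test they gave 0 to 12, beside 3 to 157 of all genes. With the replicate block the F test called 1 member, beside 10 of all genes. With the length trend removed, with or without the replicate block, the members' median was 0.037 in the main effect of AOS, 0.015 in AOS against control, 0.078 in HFD_STZ_AOS, 0.064 in HFD_STZ_AOS_FMT and 0.067 in HFD_STZ_control_FMT, each of the last 3 against HFD_STZ. The median between the transfers was 0.052 without the libraries high in Crisp1, and the summed level of AOS was 22407 RPKM under median-ratio scaling. Differences near 0 changed sign: Rpl4 in HFD_STZ_AOS against HFD_STZ was 0.01 under that scaling, 0.005 without the libraries high in Crisp1 and -0.02 to 0.021 over single omissions, and in HFD_STZ_control_FMT against HFD_STZ Rps26 was 0.018 and Rps6 0.011 under that scaling, with -0.088 to 0.068 and -0.164 to 0.205 over single omissions. The cause of these changes was not tested. Of 45 pairs of same-numbered libraries, 11 deviated together with r over 0.1 (range -0.25 to 0.41). All 3 pairs did so for HFD_STZ_AOS_FMT with control and for HFD_STZ_AOS with control. These groups were not set against each other directly, and all 3 did so for none of the 6 direct comparisons. The numbers were therefore not taken to pair the samples. Both main effects do hold HFD_STZ_AOS and control on opposite sides. With the replicate block, the main effect of AOS called 16 members, beside 418 of all genes, and that of HFD_STZ called 1, beside 388. Of the other values for named genes, 897 kept direction and side of the threshold, 210 kept direction and lost the call and 6 gained it.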

Other observations

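Nuclear genes for oxidative phosphorylation and mitochondrial ribosomal protein genes were also mostly higher in the comparisons with HFD_STZ. Of 77 tested oxidative phosphorylation genes, 73 were higher in HFD_STZ_AOS with a median log2 difference of 0.14, 74 in HFD_STZ_AOS_FMT with 0.14 and 69 in HFD_STZ_control_FMT with 0.15, against 47.7%, 43.7% and 41.1% of all genes. Of 78 mitochondrial ribosomal protein genes, 63, 60 and 56 were higher in the same order of groups, against the same shares of all genes. Short transcripts were mostly higher as well. Of the 1504 genes of at most 1000 bases outside the members, 1149, 1111 and 1057 were higher in the same order. Their medians were 0.107, 0.102 and 0.082. These comparisons share the HFD_STZ libraries, and no test of either list was run.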
